A study of Homo sapiens with 6 samples.

Results

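Expression levels of 46 WNT pathway genes were examined in HCT116SCs, a CD44+CD326+ fraction of HCT116, after transfection with PSCA siRNA. The genes were the rows of the deposited FPKM table that carry the symbols of a given list of WNT receptors, destruction complex members, TCF factors, co-activators, feedback targets, secreted inhibitors, secretion factors and co-repressors, 46 of 58735 genes in all. Each symbol on the list was found in the table. FPKM scales the reads of a gene to its length and to the size of the library. The length used counts all annotated exonic bases, so levels of different genes can be set side by side only as far as that length matches the transcripts present.

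The series held 6 RNA-seq libraries from total RNA, 3 of cells transfected with negative control siRNA (NC, genotype labelled WT) and 3 of cells transfected with PSCA siRNA (siPSCA, genotype labelled as PSCA knockdown). In both groups 3-day tumor spheres, grown without serum with B27, EGF and bFGF (20 ng/mL each), were dissociated, transfected with a liposomal reagent and harvested 48 h later. HCT116 is an established colorectal cancer line with an activating mutation in a copy of CTNNB1, the beta-catenin gene, and with intact APC, and all 6 libraries share this background. The siPSCA sequence used for sequencing was not named among those listed, the titles of siPSCA 2 and siPSCA 3 give other numbers after HCT although their other labels name HCT116, and nothing states that replicates came from separate cultures, so p-values measure only the spread between these libraries, which may be technical.

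In the canonical WNT pathway, secreted WNT ligands bind Frizzled receptors and the co-receptors LRP5 and LRP6, and Dishevelled proteins pass the signal on by holding back the destruction complex of APC, AXIN, GSK3 and casein kinase. That complex otherwise marks beta-catenin for degradation. Beta-catenin that escapes it binds TCF factors in the nucleus with BCL9 and Pygopus proteins and raises the expression of target genes, several of which, such as AXIN2, RNF43 and NKD1, encode brakes on the pathway. In the gut this pathway maintains crypt stem cells, and most colorectal cancers carry a mutation that keeps it active.

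The NC libraries held 16145977 to 16884838 reads on genes and the siPSCA libraries 16099716 to 17302219, and 1 read on a 1-kilobase gene was worth an FPKM of 0.0549 to 0.0595. PSCA, the targeted gene, was covered by 4, 12 and 15 reads in NC and by 9, 9 and 7 in siPSCA. Its mean FPKM was 0.340 ± 0.185 against 0.269 ± 0.0448 (SD, n = 3 each, exact permutation test, 2-sided, p = 0.5), so the reads of PSCA did not tell the groups apart and the groups follow the labels. All 6 epithelial and sort markers were expressed, with a summed FPKM of 805 to 866 in NC and 857 to 886 in siPSCA, of which CD44 and CDH1 were lower (log2 fold changes of -0.44 and -0.60), KRT8 and KRT19 higher (0.22 and 0.25), and EPCAM and KRT18 did not pass (-0.16 and -0.14). Of the 4 intestinal markers, CDX2 alone reached a mean FPKM of 1, CDX1 was at 0 in every library, and their summed FPKM was 1.71 to 2.60 in NC and 4.05 to 4.32 in siPSCA. COL1A1 alone of the 5 fibroblast markers did so, with a summed FPKM of 3.49 to 5.74 and 6.17 to 6.74, and the leukocyte and endothelial markers summed to at most 0.297 and 0.251. The part of these markers in the results was not tested. NC 3 stood apart from NC 1 and NC 2 along GC content (Spearman correlation of their difference with GC content -0.56, taken over genes, which are not independent), and the fold changes between the groups also followed it (0.664). Values without NC 3 and values after a trend on GC content and gene length was removed are therefore given beside many of the results.

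Of the 46 genes, 40 reached a mean FPKM of 1 and were tested with limma on log2(FPKM + 1) among 13796 genes, with p-values adjusted over all of them. Of these, 26 (65%) passed an adjusted p of 0.05, 16 of them higher (40.0%) and 10 lower (25.0%) in siPSCA. Among all genes tested 50.7% passed, made up of 26.6% higher and 24.2% lower, so the share of lower WNT genes was near that of all genes. The median log2 fold change of the WNT genes was 0.19, against 0.01 over all genes tested. Without NC 3 there were 17 higher and 10 lower WNT genes with a median of 0.12. Of the 13796 genes tested, 4014 were then higher and 3411 lower. After removal of the GC and length trend there were 8 higher and 10 lower (45% in all) with a median of 0.07. Of all genes 39.6% then passed, made up of 21.2% higher and 18.4% lower, with a median over all genes tested of 0.02. Of the 26 calls, 14 were lost by that removal, 11 held with the same direction, 6 higher and 5 lower, and CSNK1A1 passed in the opposite direction.

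The groups did not overlap for 33 of the 40 genes, 20 higher and 13 lower in siPSCA, and for 64.5% of all genes tested. With 3 libraries against 3 an exact permutation test of a single gene cannot fall below p = 0.1. Separation together with an adjusted p under 0.05 and a log2 fold change of at least 0.5 in either direction was met by 13 WNT genes, against 23.7% of all genes tested. These were BCL9L, DVL1, CSNK1E, PYGO2, AXIN2, GSK3A, DVL2, SP5, LRP5, FZD3, DKK4, WLS and TNIK. In RNA from bulk cultures, fewer cells of a type and less RNA per cell cannot be told apart.

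**Figure D1:**
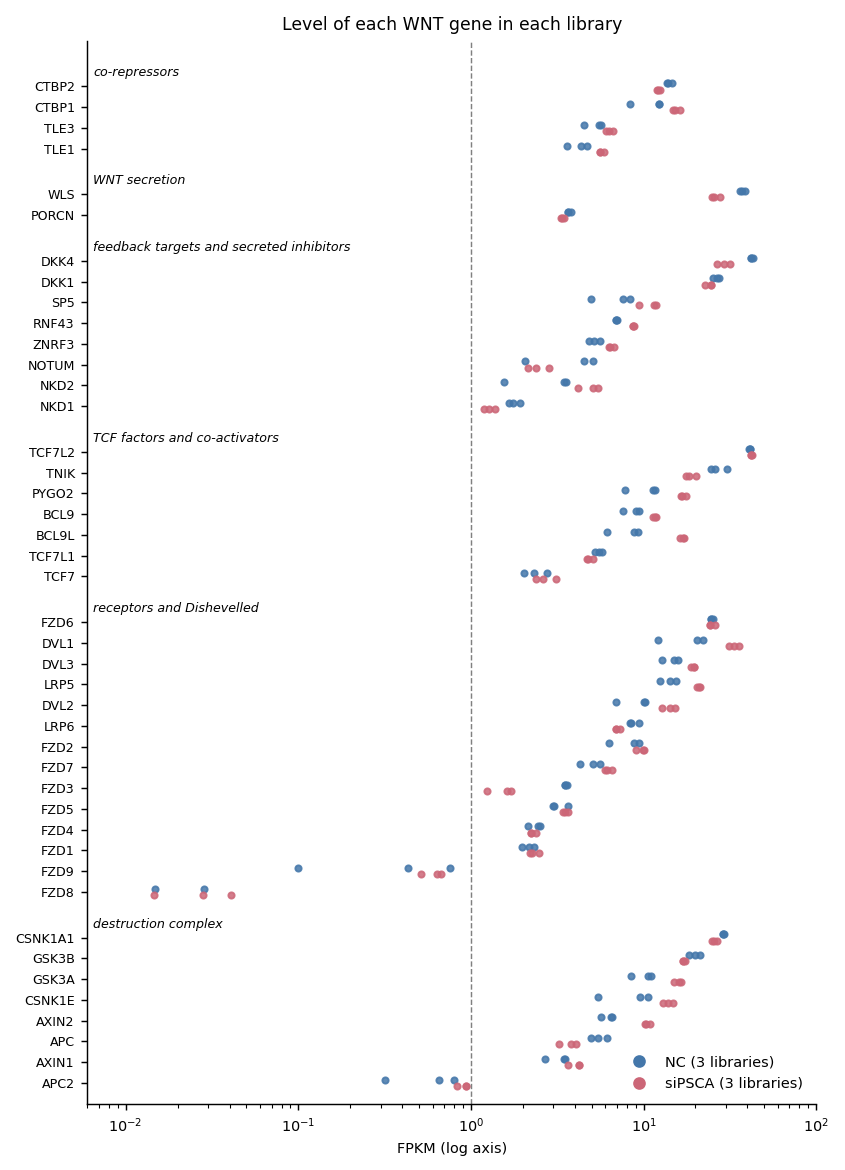
FPKM (log axis) of the WNT genes in each NC (blue) and siPSCA (red) library, grouped by role, with a dashed line at the minimum mean FPKM of 1. LEF1, WIF1 and SFRP1, at 0 reads in every library, and FZD8 in NC 3, also at 0, have no points on this axis, and most genes lie between an FPKM of 1 and 50 with the groups close together.

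With NC siRNA the most abundant transcripts of the list were those of DKK4 (42.2 ± 0.535, FPKM, SD, n = 3) and TCF7L2 (41.3 ± 0.272), followed by WLS (37.3 ± 1.21) and CSNK1A1 (28.9 ± 0.187). DKK4 ranked at percentile 94.5 and TCF7L2 at percentile 94.4 of all genes tested. TNIK (27.0 ± 3.07) and DKK1 (26.5 ± 1.02) came next and overlapped each other, and FZD6 (24.7 ± 0.456) lay just below the lowest library of DKK1. The libraries of TNIK also overlapped those of CSNK1A1 and of FZD6. At the low end of the genes tested stood NKD1 (1.78 ± 0.136), FZD1 (2.15 ± 0.180), FZD4 (2.36 ± 0.192) and TCF7 (2.37 ± 0.378), of which the last 3 overlapped. With siPSCA TCF7L2 (42.0 ± 0.289) stood at the top and DVL1 (33.5 ± 2.30) came after it, followed by DKK4 (29.3 ± 2.49) and WLS (26.1 ± 1.33), where the libraries of DVL1 and DKK4 overlapped, as did those of DKK4 and WLS.

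The 6 genes that were not tested were low or at 0. LEF1, a TCF family factor, and the secreted WNT inhibitors WIF1 and SFRP1 had 0 reads in every library, which allows an FPKM of up to 0.0333, 0.0754 and 0.0375 at 3 reads, a limit that covers counting error only. FZD8 had at most 3 reads in any library. FZD9 had 17, 31 and 4 reads in NC and 25, 28 and 22 in siPSCA. APC2, a relative of APC, had 170, 143 and 69 reads in NC and 177, 211 and 215 in siPSCA, with an FPKM of 0.590 ± 0.248 and 0.902 ± 0.0630 (SD, n = 3 each).

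The feedback targets of the pathway did not move in a common direction. AXIN2, RNF43, ZNRF3 and SP5 rose in siPSCA, NKD1 and DKK4 fell, and NOTUM and DKK1 did not pass the test. Of the 10 feedback targets and secreted inhibitors on the list (AXIN2 was counted with the destruction complex) 8 were tested. Of these, 3 were higher and 2 lower (62.5%, against 50.7% of all genes). After removal of the GC and length trend 1 was higher and 3 were lower. Of all genes 39.6% then passed, 21.2% higher and 18.4% lower.

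AXIN2 (ENSG00000168646) lies on the minus strand of chromosome 17 from 65528563 to 65561647 of GRCh38 and encodes a scaffold of the destruction complex whose own gene is switched on by beta-catenin and TCF. Its FPKM was 6.48, 6.57 and 5.66 in NC and 11.0, 10.2 and 10.3 in siPSCA. All siPSCA libraries stood well above all NC libraries, and the 3 values of each group lay close together. The mean rose 1.68-fold, from 6.24 ± 0.499 to 10.5 ± 0.419 (SD, n = 3 each), and the log2 fold change was 0.67 (SE, its standard error, 0.07, limma adjusted p = 0.00129). Leaving out NC 3 gave 0.61, removal of the GC and length trend gave 0.51, and the gene passed in each of the 14 other settings tried. AC004805.1, which shares 25.2% of the exonic bases of AXIN2, had at most 5 reads in any library.

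RNF43 and ZNRF3 encode related membrane ubiquitin ligases that take Frizzled receptors off the cell surface. RNF43 had an FPKM of 6.94, 7.05 and 6.92 in NC and 8.67, 8.85 and 8.70 in siPSCA. ZNRF3 had 5.17, 5.60 and 4.81 in NC and 6.77, 6.35 and 6.37 in siPSCA. The groups did not overlap for either gene, and the spread within them was small for RNF43. RNF43 rose 1.25-fold (log2 fold change 0.29, SE 0.05, limma adjusted p = 0.00398), with 0.28 without NC 3 and 0.24 after removal of the trend. ZNRF3 also rose 1.25-fold (log2 fold change 0.28, SE 0.07, limma adjusted p = 0.0159), and after removal of the trend it had 0.14 and an adjusted p of 0.0767. RNF43 passed in all 14 other settings and ZNRF3 in 10 of them. A readthrough transcript, AC004687.2, shares 57.6% of the exonic bases of RNF43 and had 9 to 25 reads, and the counting rule for shared bases is not stated.

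SP5 encodes a zinc finger factor that is induced by WNT signals and acts back on TCF targets, and DKK1 encodes a secreted inhibitor that binds LRP5 and LRP6. Their promoters are printed because, of the 34 members with a promoter entry in RefSeq (53 entries, GRCh38.p14), they were those with a TCF core motif between 250 bases before and 50 bases after the start. The motifs searched on both strands were CTTTGAT, found in 2.62% of 35116 promoters, and CTTTGAA, found in 4.43%, and either was found in 6.86%. Capitals mark the matches, where TTCAAAG is CTTTGAA on the other strand. AXIN2, NKD1, ZNRF3 and NOTUM had no entry. In the promoter of SP5 (chr2:170715087-170715386, plus strand) the matches begin 148, 109 and 84 bases before the start, and in that of DKK1 (chr10:52314031-52314330, plus strand) the match begins 95 bases before it.
SP5: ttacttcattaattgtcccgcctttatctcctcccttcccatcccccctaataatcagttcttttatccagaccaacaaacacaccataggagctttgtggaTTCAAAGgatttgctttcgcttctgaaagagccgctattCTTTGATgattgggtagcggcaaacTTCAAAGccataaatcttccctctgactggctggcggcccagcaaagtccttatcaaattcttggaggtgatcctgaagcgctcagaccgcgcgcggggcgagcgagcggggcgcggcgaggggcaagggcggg
DKK1: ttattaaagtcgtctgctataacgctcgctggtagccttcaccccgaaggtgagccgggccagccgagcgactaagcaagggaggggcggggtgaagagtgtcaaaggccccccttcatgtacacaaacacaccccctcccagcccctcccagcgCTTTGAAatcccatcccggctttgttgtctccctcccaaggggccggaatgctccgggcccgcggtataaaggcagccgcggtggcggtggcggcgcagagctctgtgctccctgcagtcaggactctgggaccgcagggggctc

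A match of these letters is a description of the sequence and says nothing of binding in these cells. The genes with a match differed in their values. SP5 had an FPKM of 7.63, 8.39 and 4.96 in NC and 11.6, 11.8 and 9.35 in siPSCA, and DKK1 had 25.4, 27.4 and 26.7 in NC and 24.6, 22.6 and 24.6 in siPSCA. All siPSCA values of SP5 lay above the NC values, of which NC 3 was the lowest, and all siPSCA values of DKK1 lay below the NC values by a small margin. SP5 rose 1.56-fold (log2 fold change 0.59, SE 0.18, limma adjusted p = 0.0361). Leaving out NC 3 gave a log2 fold change of 0.40, removal of the GC and length trend turned it to -0.12 (limma adjusted p = 0.253), and it did not pass without siPSCA 1 or without siPSCA 2. For DKK1 the log2 fold change was -0.14 (SE 0.06, limma adjusted p = 0.0779), and it passed in no setting tried, with a range of -0.19 to -0.00.

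DKK4, a relative of DKK1 with the same mode of action, had an FPKM of 42.1, 42.8 and 41.8 in NC and 31.7, 26.7 and 29.4 in siPSCA. Every siPSCA library was lower than every NC library. The mean fell 1.44-fold (log2 fold change -0.52, SE 0.07, limma adjusted p = 0.00233), with -0.52 without NC 3 and -0.55 after removal of the trend. DKK4 passed in all 14 other settings. The difference between DKK4 and DKK1 in this response was not tested.

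NKD1 encodes a protein that binds and restrains Dishevelled and is itself a WNT target. Its FPKM was 1.93, 1.66 and 1.74 in NC and 1.19, 1.28 and 1.38 in siPSCA, at 505 to 565 and 350 to 437 reads per library. The groups did not overlap, and the FPKM was the lowest of the 40 genes, at an exonic length of 17425 bases. NKD1 fell 1.39-fold (log2 fold change -0.28, SE 0.09, limma adjusted p = 0.0350), with -0.26 after removal of the trend. It did not pass when any 1 of the 6 libraries was left out, with log2 fold changes of -0.31 to -0.25 and -0.29 without NC 3. Its relative NKD2, at 2.87 ± 1.14 in NC and 4.90 ± 0.654 in siPSCA (SD, n = 3 each), was separated upwards but did not pass (limma adjusted p = 0.0611).

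NOTUM encodes a secreted enzyme that removes the lipid from WNT ligands. Its FPKM was 5.11, 4.53 and 2.06 in NC and 2.82, 2.14 and 2.38 in siPSCA. NC 1 and NC 2 lay above all siPSCA libraries and NC 3 lay below all of them, so the groups overlapped. The log2 fold change was -0.45 (SE 0.26, limma adjusted p = 0.196). Without NC 3 it was -0.76 (limma adjusted p = 0.00208), and after removal of the GC and length trend it was -1.21 (SE 0.11, adjusted p = 0.000831), so that whether NOTUM passed depended on NC 3 and on the GC trend, at a GC content of 66.5%.

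In the destruction complex 6 of 7 genes tested passed, 3 higher and 3 lower, where 50.7% of all genes passed. After removal of the GC and length trend 3 were higher and 1 was lower, where 39.6% of all genes passed. AXIN2 and GSK3A rose in both analyses. The paralogous kinases GSK3A and GSK3B, which phosphorylate beta-catenin, went in opposite directions. GSK3A had an FPKM of 11.0, 10.6 and 8.51 in NC and 16.4, 15.0 and 16.0 in siPSCA, with no overlap. It rose 1.58-fold (log2 fold change 0.61, SE 0.10, limma adjusted p = 0.00405), with 0.51 without NC 3 and 0.46 after removal of the trend, and it passed in all 14 other settings. GSK3B had 18.3, 19.8 and 21.1 in NC and 16.9, 16.9 and 17.4 in siPSCA, a small but separated difference. Its log2 fold change was -0.20 (limma adjusted p = 0.0355) and 0.05 after removal of the trend (adjusted p = 0.343). The share of GSK3B in the summed FPKM of both genes was 66.3% in NC and 51.9% in siPSCA, and the sum was 29.8 ± 0.594 and 32.9 ± 0.848 (SD, n = 3 each, exact permutation test, 2-sided, p = 0.1).

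CSNK1A1, the kinase that primes beta-catenin for GSK3, had an FPKM of 29.1, 28.8 and 28.8 in NC and 25.0, 25.5 and 26.8 in siPSCA. Its log2 fold change of -0.16 (limma adjusted p = 0.0299) turned to 0.16 (adjusted p = 0.0301) after removal of the trend. AC021078.1 shares 37.4% of its exonic bases on the same strand and had 849 to 922 reads in NC and 490 to 566 in siPSCA, so the reads of CSNK1A1 are uncertain. CSNK1E, a casein kinase that phosphorylates Dishevelled and LRP6, had 10.6, 9.50 and 5.46 in NC and 14.7, 13.9 and 12.9 in siPSCA. The siPSCA values lay above all NC values, among which NC 3 was far below the other two. CSNK1E rose 1.63-fold (log2 fold change 0.68, SE 0.22, limma adjusted p = 0.0390), with 0.43 without NC 3. It passed in 6 of the 14 other settings and not after removal of the trend (0.36, limma adjusted p = 0.103).

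APC, the scaffold that is lost in most colorectal cancers and intact in HCT116, had an FPKM of 4.95, 5.45 and 6.13 in NC and 3.26, 3.82 and 4.05 in siPSCA. All siPSCA libraries were lower. APC fell 1.48-fold (log2 fold change -0.47, SE 0.10, limma adjusted p = 0.00998), with -0.40 without NC 3 and -0.09 after removal of the trend (adjusted p = 0.288), at a GC content of 39.6%. AXIN1, the constitutive relative of AXIN2, had 3.23 ± 0.471 in NC and 4.03 ± 0.320 in siPSCA (SD, n = 3 each). It did not pass (log2 fold change 0.26, limma adjusted p = 0.0803) and was lower after removal of the trend (-0.30, adjusted p = 0.0194).

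Among the receptors and Dishevelled genes 7 of 12 tested passed (58.3%), 5 higher and 2 lower, near the 50.7% of all genes. After removal of the GC and length trend 1 was higher and 2 were lower (25.0%, against 39.6% of all genes). FZD3 fell in both analyses. The Dishevelled genes, whose products relay the signal from the receptors, all rose, and none of the 3 passed once the trend was removed. FZD3, a Frizzled receptor known from axon guidance and planar cell polarity, had an FPKM of 3.59, 3.53 and 3.52 in NC and 1.25, 1.61 and 1.71 in siPSCA. The NC values were nearly equal, and all siPSCA values lay far below them. FZD3 fell 2.33-fold (log2 fold change -0.86, SE 0.09, limma adjusted p = 0.00136), with -0.86 without NC 3 and -0.44 after removal of the trend (adjusted p = 0.00607). It passed in all 14 other settings and had the lowest log2 fold change of the 40 genes, at a GC content of 34.9%.

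The other Frizzled genes moved less. FZD6, the most abundant, had an FPKM of 24.7 ± 0.456 in NC and 24.7 ± 0.913 in siPSCA (SD, n = 3 each), with a log2 fold change of 0.00 (SE 0.05, limma adjusted p = 0.993) and 0.27 after removal of the trend (adjusted p = 0.00271). FZD7 rose 1.25-fold (log2 fold change 0.28, limma adjusted p = 0.0453), with 0.19 without NC 3 and 0.09 after removal of the trend (adjusted p = 0.358). The log2 fold changes of FZD1, FZD2, FZD4 and FZD5 lay between -0.03 and 0.23, none of them past the threshold, and FZD2 was lower after removal of the trend (-0.42, limma adjusted p = 0.00101). Summed over the 9 Frizzled genes on the list, the FPKM was 49.6 ± 2.44 in NC and 50.9 ± 0.278 in siPSCA (exact permutation test, 2-sided, p = 0.6), of which FZD6 made up 47.5% to 53.9%.

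The co-receptors LRP5 and LRP6 went in opposite directions. LRP5 had an FPKM of 14.2, 15.5 and 12.5 in NC and 21.1, 20.4 and 21.2 in siPSCA. LRP6 had 8.44, 8.32 and 9.43 in NC and 6.91, 6.95 and 7.34 in siPSCA. Neither gene had overlapping groups, and their GC content was 62.8% and 40.2%. LRP5 rose 1.49-fold (log2 fold change 0.54, SE 0.08, limma adjusted p = 0.00325), with 0.47 without NC 3 and 0.01 after removal of the trend (adjusted p = 0.902). For LRP6 the log2 fold change was -0.27 (SE 0.06, limma adjusted p = 0.0150), with -0.22 without NC 3 and 0.07 after removal of the trend (adjusted p = 0.215).

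DVL1 had an FPKM of 22.2, 20.3 and 12.2 in NC and 35.8, 33.5 and 31.2 in siPSCA. DVL2 had 10.1, 10.2 and 6.97 in NC and 15.3, 14.3 and 12.8 in siPSCA. In both genes NC 3 was the lowest library and all siPSCA libraries stood above all NC libraries. DVL1 rose 1.84-fold (log2 fold change 0.88, SE 0.21, limma adjusted p = 0.0152), with 0.63 without NC 3 and 0.09 after removal of the trend. DVL2 rose 1.56-fold (log2 fold change 0.60, SE 0.15, limma adjusted p = 0.0168), with 0.44 without NC 3 and 0.17 after removal of the trend. DVL3 rose 1.33-fold (log2 fold change 0.39, limma adjusted p = 0.00934), with 0.12 after removal of the trend. After that removal the adjusted p was 0.166, 0.0876 and 0.0736 for DVL1, DVL2 and DVL3. The summed FPKM of the 3 genes was 41.9 ± 8.64 in NC and 67.0 ± 3.61 in siPSCA (SD, n = 3 each, exact permutation test, 2-sided, p = 0.1).

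Among TCF factors and co-activators 4 of 7 genes tested passed (57.1%), near the 50.7% of all genes. BCL9L, BCL9 and PYGO2 rose, and TNIK fell. These 4 calls held after removal of the GC and length trend, by which TCF7L1 was also lower (71.4% in all, against 39.6% of all genes). TCF7L2, the main TCF factor of colorectal cells, had an FPKM of 41.5, 41.4 and 41.0 in NC and 42.0, 41.7 and 42.2 in siPSCA. These groups were separated by a narrow margin, with a log2 fold change of 0.02 (SE 0.04, limma adjusted p = 0.659). TCF7L2 made up 82.8% to 85.7% of the summed FPKM of TCF7, TCF7L1, TCF7L2 and LEF1, which was 49.2 ± 0.388 in NC and 49.5 ± 0.242 in siPSCA (exact permutation test, 2-sided, p = 0.2). TCF7 (2.37 ± 0.378 and 2.70 ± 0.368) and TCF7L1 (5.48 ± 0.258 and 4.86 ± 0.237) had log2 fold changes of 0.14 and -0.14 with adjusted p of 0.361 and 0.0903 from limma, and after removal of the trend that of TCF7L1 was -0.64 (adjusted p = 0.0105).

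BCL9L and BCL9 encode related adaptors that tie beta-catenin to Pygopus proteins, and PYGO2 is a Pygopus that binds methylated histone H3. BCL9L had an FPKM of 9.28, 8.84 and 6.12 in NC and 17.1, 17.0 and 16.2 in siPSCA. Its siPSCA values were tight and far above all NC values, and no other of the 40 genes had a higher log2 fold change. BCL9L rose 2.08-fold (log2 fold change 0.99, SE 0.14, limma adjusted p = 0.00293), with 0.82 without NC 3 and 0.52 after removal of the trend (adjusted p = 0.000435). BCL9 rose 1.34-fold (log2 fold change 0.39, limma adjusted p = 0.00943), with 0.30 without NC 3 and 0.25 after removal of the trend. PYGO2 had 11.4, 11.7 and 7.82 in NC and 17.6, 16.4 and 16.7 in siPSCA, again without overlap. It rose 1.64-fold (log2 fold change 0.68, SE 0.14, limma adjusted p = 0.0101), with 0.51 without NC 3 and 0.35 after removal of the trend (adjusted p = 0.0226). BCL9L, BCL9 and PYGO2 passed in all 14 other settings. CXCR5 on the other strand shares 37.5% of the exonic bases of BCL9L and had 0 reads in every library. SHC1 shares 9.23% of those of PYGO2 on the same strand. It had 2582 to 3156 reads in NC and 3575 to 3691 in siPSCA, so the reads of PYGO2 are uncertain.

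TNIK, a kinase that binds TCF7L2 and is needed for its activity in colorectal cancer cells, had an FPKM of 24.5, 26.0 and 30.4 in NC and 17.7, 18.4 and 20.1 in siPSCA. Every siPSCA library was below every NC library. TNIK fell 1.44-fold (log2 fold change -0.50, SE 0.09, limma adjusted p = 0.00654), with -0.41 without NC 3 and -0.40 after removal of the trend, and it passed in all 14 other settings.

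WLS and PORCN act before secretion: PORCN attaches the lipid to WNT ligands and WLS carries them to the cell surface. WLS had an FPKM of 37.1, 38.5 and 36.1 in NC and 27.5, 25.0 and 25.6 in siPSCA, with tight and separate groups. It fell 1.43-fold (log2 fold change -0.50, SE 0.06, limma adjusted p = 0.00149), with -0.52 both without NC 3 and after removal of the trend, and it passed in all 14 other settings. PORCN had 3.71 ± 0.0802 in NC and 3.39 ± 0.0732 in siPSCA (SD, n = 3 each). The groups were separated, the gene did not pass (log2 fold change -0.10, limma adjusted p = 0.172), and after removal of the trend it was lower (-0.50, adjusted p = 0.00957).

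The co-repressors TLE1 and TLE3, Groucho proteins that bind TCF factors when beta-catenin is absent, and CTBP1 and CTBP2 were separated between groups in all 4 cases, as 64.5% of all genes tested were. TLE1 rose 1.36-fold (log2 fold change 0.37, limma adjusted p = 0.0151) and CTBP1 rose 1.40-fold (0.47, adjusted p = 0.0353). CTBP2 fell 1.15-fold (-0.19, limma adjusted p = 0.0185), and TLE3 did not pass (0.25, adjusted p = 0.0592). After removal of the GC and length trend their log2 fold changes lay between 0.04 and 0.08, with adjusted p of 0.571 for TLE1, 0.359 for TLE3, 0.364 for CTBP1 and 0.162 for CTBP2. ZRANB1 on the other strand shares 31.2% of the exonic bases of CTBP2, and strand use in counting is not stated.

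**Figure D2:**
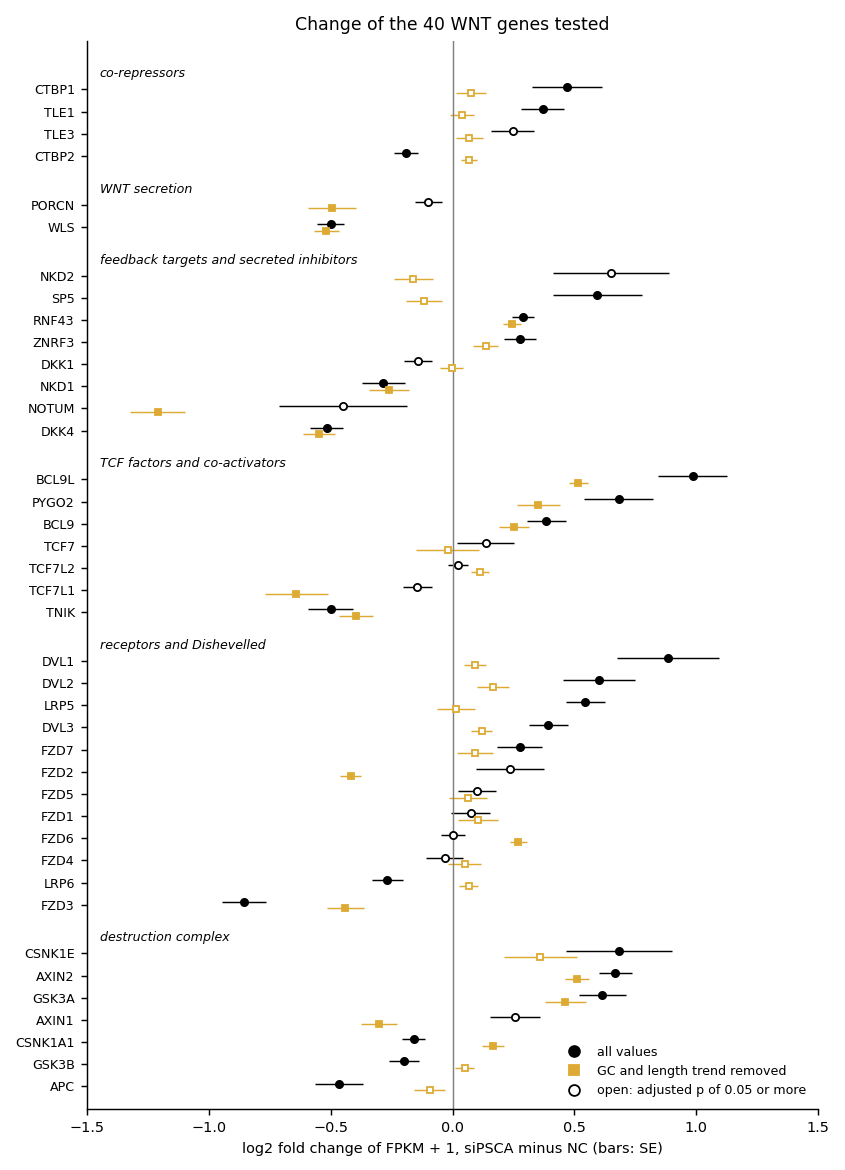
Log2 fold change of FPKM + 1 (siPSCA minus NC, bars are SEs) of the 40 WNT genes tested, as deposited (black circles) and after removal of the GC and length trend (yellow squares), with filled symbols for an adjusted p under 0.05 from limma. AXIN2, GSK3A, BCL9L, BCL9, PYGO2, RNF43, FZD3, TNIK, NKD1, DKK4 and WLS are filled on the same side of 0 in both, and the Dishevelled genes, LRP5 and SP5 move toward 0 in yellow, SP5 past it.

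The fold changes of the WNT genes followed base composition as those of all genes did. Across the 40 genes GC content of the longest transcript and log2 fold change had a Spearman correlation of 0.62, and of -0.11 after removal of the trend, where the genes come from the same 6 libraries and are not independent. The median GC content was 57.2% for the 16 higher and 42.4% for the 10 lower WNT genes, against 57.5% and 41.2% for all higher and lower genes. Of the 11 WNT genes with a GC content over 60%, 6 passed and each of them was higher. Of the 8 under 45%, 6 passed and each of them was lower. The shares of all genes in these GC ranges were not taken, so these counts do not set the WNT genes apart. The opposite directions of LRP5 and LRP6 and of GSK3A and GSK3B went together with differing base composition, GSK3A at 52.0% and GSK3B at 42.1%, whose part in these results was not tested. With these libraries, siRNA treatment and library preparation cannot be told apart.

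A list of 82 other pathway genes was read from the same fit. Of its 50 genes tested 15 were higher and 12 lower (54.0% in all, against 50.7% of all genes). After removal of the GC and length trend 14 were higher and 13 lower (54.0% in all, against 39.6% of all genes). CTNNB1, which encodes beta-catenin, had an FPKM of 34.3, 35.9 and 33.6 in NC and 38.2, 39.6 and 39.3 in siPSCA. It rose 1.13-fold (log2 fold change 0.17, SE 0.05, limma adjusted p = 0.0249), with 0.15 without NC 3 and 0.41 after removal of the trend (adjusted p = 0.00237). FPKM does not separate the mutant from the normal copy.

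The 10 largest changes on this list were those of KREMEN2, BMP4, AES, CSNK1G2, CSNK1D, PTK7, CTNNBIP1, WNT9A and WNT7B, all higher, and HBP1, which was lower. KREMEN2, a receptor for DKK proteins, had the largest log2 fold change (1.04, limma adjusted p = 0.0214) with an FPKM of 5.67, 3.60 and 2.00 in NC and 9.04, 8.33 and 7.62 in siPSCA, and had 0.18 after removal of the trend (adjusted p = 0.281). PKMYT1 on the other strand shares 13.8% of its exonic bases and had 98 to 331 reads in NC and 854 to 958 in siPSCA, so the reads of KREMEN2 are uncertain. BMP4, a ligand gene that beta-catenin raises in colon cancer cells, rose 1.92-fold, from 72.4 ± 4.61 to 139 ± 5.83 (SD, n = 3 each), with a log2 fold change of 0.94 (limma adjusted p = 0.000480) and 0.70 after removal of the trend. The casein kinases CSNK1G2 and CSNK1D had log2 fold changes of 0.88 and 0.64, AES, a short Groucho relative, had 0.92, the co-receptor PTK7 had 0.63 and CTNNBIP1, which blocks the binding of beta-catenin to TCF, had 0.56. SLC16A3 on the other strand shares 4.37% of the exonic bases of CSNK1D. It had 1486 to 3790 reads in NC and 5512 to 6208 in siPSCA, so the reads of CSNK1D are uncertain. HBP1, a repressor of TCF activity that shares 15.4% of its exonic bases with COG5 on the other strand, had -0.47. These 6 genes still passed after removal of the trend, with, in the same order, 0.18, 0.40, 0.59, 0.33, 0.21 and -0.25. WNT9A and WNT7B, which had 0.54 each, then had 0.10 and -0.02 and did not pass.

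Of 19 WNT ligand genes 8 were tested and those 2 passed (25.0%, against 50.7% of all genes). The summed FPKM of the ligands was 36.9 ± 0.907 in NC and 41.7 ± 1.28 in siPSCA (SD, n = 3 each, exact permutation test, 2-sided, p = 0.1), and WNT16 made up 56.5% to 68.2% of it. Of 11 intestinal beta-catenin targets tested, MYC, CCND1 and BMP4 were higher and BAMBI, CD44, SLC12A2, SOX9 and ETS2 were lower (72.7% in all, against 50.7% of all genes). After removal of the trend 3 were higher and 6 lower (81.8% in all, against 39.6% of all genes), and SLC12A2 no longer passed (-0.01, limma adjusted p = 0.942). MYC had a log2 fold change of 0.44 (limma adjusted p = 0.00327) and 0.21 after removal of the trend, and CCND1 had 0.44 (adjusted p = 0.000963) and 0.36. These targets, like the feedback targets AXIN2 and DKK4, were called in both directions. The stem cell targets LGR5, with 0 to 8 reads per library, and ASCL2 were at or near 0.

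**Figure D3:**
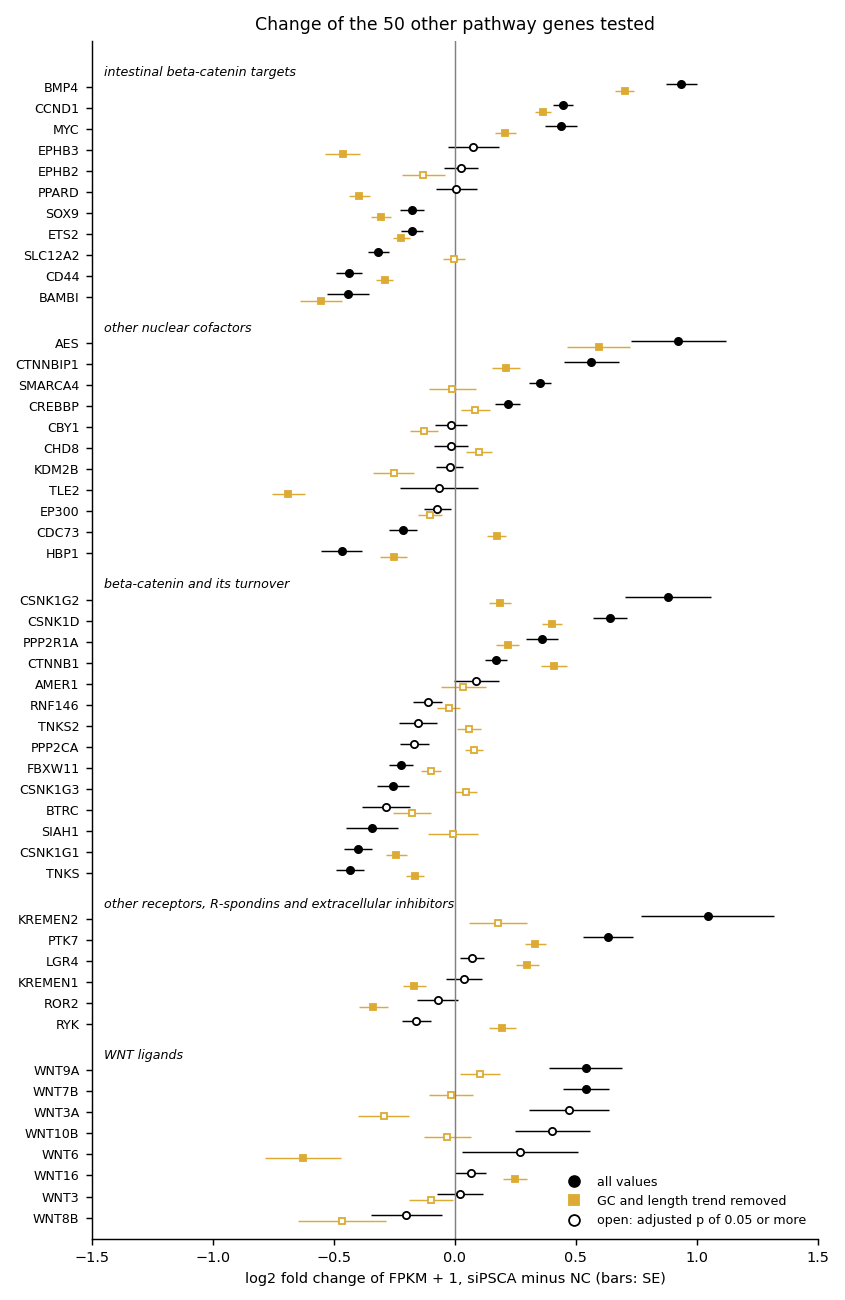
Log2 fold change of FPKM + 1 (siPSCA minus NC, bars are SEs) of the 50 other pathway genes tested, as deposited (black circles) and after removal of the GC and length trend (yellow squares), with filled symbols for an adjusted p under 0.05 from limma. BMP4, AES, CSNK1D and CTNNB1 are filled to the right of 0 in both, BAMBI, CD44 and SOX9 to the left. The WNT ligands lie close to or below 0 in yellow except WNT16.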

How the data were processed

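HCT116SCs transfected with NC siRNA (n = 3 libraries) or PSCA siRNA (n = 3 libraries) were grouped by the sample labels. The authors prepared libraries with a NEBNext Ultra kit, sequenced them in paired-end mode and deposited FPKM values for 58735 genes, with GRCh38 given in the submitters' processing notes. The aligner, the counting program and its use of strand are not given in the sources used here. GENCODE release 29 has the same start, end and exonic length for all 58735 genes. In each library 100% of FPKM values were whole multiples of the value of 1 read (tolerance 0.02), so reads were recovered. Library totals ranged from 16803235 to 18218661.

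The 13796 genes whose FPKM averaged 1 or more were fitted with limma 3.58.1 in R 4.3.3 (lmFit, eBayes with trend, 2-sided) on log2(FPKM + 1), with Benjamini-Hochberg adjustment over all of them. Log2 fold changes are on that scale and understate changes of low genes. Fold values are ratios of mean FPKM. Python 3.11.15, pandas 2.3.3, numpy 2.4.6, scipy 1.17.1 and matplotlib 3.10.9 were also used. The alternatives were a pseudocount of 0.1, no FPKM minimum, median scaling, limma-voom on recovered reads with TMM factors, removal of a trend on GC content and length (splines with 5 degrees of freedom, 13792 genes), a replicate block with and without that removal, and leaving out each library.

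The members, the list of other pathway genes and the marker lists were chosen with earlier results of these data known. Values of every library are given for members with an adjusted p under 0.05, no overlap and a log2 fold change of at least 0.5 either way, for AXIN2, NKD1, RNF43, ZNRF3, SP5, NOTUM and DKK1 by choice, for CTNNB1, and for genes singled out after their values were seen (APC, GSK3B, CSNK1A1, LRP6, TCF7L2, KREMEN2). Other members are given by level, fold or range. Of the other pathway genes the 10 largest changes were named, and further ones, such as MYC and CCND1, were chosen after their values were seen.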

Additional observations from a re-analysis of the deposited data

How the results depend on the processing

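Besides the fit reported, 14 settings were tried, 1 of them (without NC 3 together with removal of the GC and length trend) chosen after seeing the data. With the GC and length trend removed, 8 WNT genes were higher, the median log2 fold change of the WNT genes was 0.065, and SP5 had -0.12. With the replicate block and the trend removed together, 2197 of all genes were lower, 7 WNT genes were higher, the median was 0.065 and SP5 had -0.12. Without NC 3 and with the trend removed, 9 WNT genes were higher, the median was 0.045 and SP5 had -0.12. The cause was not tested. Leaving out 1 library at a time gave 2299 (without siPSCA 1) to 4014 (without NC 3) higher genes among all genes, 9 to 17 higher and 5 to 10 lower WNT genes, and 6 to 13 lower other pathway genes, with fewest WNT genes called without siPSCA 1 (9 higher, 5 lower) or siPSCA 2 (10 higher, 5 lower). Of the 26 calls on WNT genes 12 were lost without siPSCA 1 and 11 without siPSCA 2. Calls over all genes went from 3668 higher and 3333 lower to 2299 and 2328 without siPSCA 1. Without siPSCA 2 they went to 2402 and 2332. How many single calls were lost over all genes was not counted. Over the named WNT genes and all settings, 208 values kept their direction and call, 37 lost the call, 4 gained it and 3, all of SP5, changed sign.

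Deviations of same-numbered libraries from their group means correlated at 0.0955, 0.0132 and 0.134, and NC 2 correlated better with siPSCA 1 (0.0363) than with its own number. In each group of 3 libraries these deviations sum to 0, so the correlations cannot decide whether the replicate numbers pair the samples. With the replicate number as a block, 3572 genes were higher and 3153 lower, and 19 WNT genes were higher and 8 lower.

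Differences of the genes with at most 3 reads were not detectable at this depth.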
